A study of Mus musculus with 6 samples.

Results

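The 10 genes described here encode the core of the Notch pathway in the mouse: the 4 receptors Notch1, Notch2, Notch3 and Notch4, the 3 ligands Jag1, Jag2 and Dll4, and the 3 transcriptional targets Hes1, Hey1 and Heyl. They were chosen by symbol from the 25160 features of the count table, and each symbol was found in 1 row. The study compared whole mammary glands of 3 control mice and 3 metformin-treated mice, with 1 library of polyadenylated RNA for each mouse. All animals were wild-type (WT) females of the inbred FVB/N strain. The metformin group received 200 mg/kg/day of this biguanide drug by intraperitoneal injection for 10 weeks, from 8 to 18 weeks of age, and the control group received saline. The glands were the fourth pair, with lymph nodes removed, so that each library mixed epithelium, fat, vessels, fibroblasts and leukocytes, and fewer cells of a type cannot be told apart from less RNA per cell.

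Notch receptors are single-pass membrane proteins that bind Jagged or Delta-like ligands on a neighbouring cell. Binding leads to cleavage by an ADAM protease and then by the gamma-secretase complex, and the freed intracellular domain joins the DNA-binding protein RBPJ and a Mastermind coactivator in the nucleus to switch on Hes and Hey genes, which encode basic helix-loop-helix repressors. Fringe enzymes add a sugar to the receptors and thereby change their response to Jagged and Delta-like ligands. In the mammary gland the pathway is known for its part in the choice between luminal and basal cell fates, in vessels it separates tip from stalk cells and maintains the mural cells around them, and Notch4 was first found as a gene activated by insertion of mouse mammary tumour virus.

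The libraries held between 35375365 and 47370885 counts, and the members were covered by 313 to 4376 counts each in every library. All 10 passed the filter on low counts, which kept 15925 features. The counting error alone, at the lowest count of each gene, was between 2.27% and 5.65% of the value, whereas the coefficient of variation over mice ran from 3.25% to 55.4% in the control group and from 6.19% to 25.2% in the metformin group. Control mouse 3 stood apart from the other controls. The summed level of 8 milk genes was 41423, 35678 and 616 CPM (counts scaled to a common library size) in control mice 1 to 3. It was 260.2, 329 and 829 CPM in the metformin mice. Several results for members and pathway genes are also given without control mouse 3, whereas the marker lists are given with all mice only.

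The promoters are shown for a ligand, Dll4, and for Lfng, the fringe gene with the largest fold change among the other pathway genes, since RBPJ sites and the E-box-like sites that Hes and Hey proteins bind are the sequences through which the pathway acts. The stretches come from RefSeq (GRCm38.p6). The Dll4 stretch is chr2:119325534-119325783 on the plus strand, and the Lfng stretch is chr5:140607091-140607319 on the plus strand, ending at the base before the annotated gene start. Capitals mark each match, on either strand, to TGGGAA (the RBPJ core), CACGTG (an E-box) or CACGCG (a site of the Hes type).
Dll4: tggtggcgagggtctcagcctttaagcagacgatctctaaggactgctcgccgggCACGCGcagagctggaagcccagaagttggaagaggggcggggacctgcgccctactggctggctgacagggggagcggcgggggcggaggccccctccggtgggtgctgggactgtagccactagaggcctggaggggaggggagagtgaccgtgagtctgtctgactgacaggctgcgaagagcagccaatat
Lfng: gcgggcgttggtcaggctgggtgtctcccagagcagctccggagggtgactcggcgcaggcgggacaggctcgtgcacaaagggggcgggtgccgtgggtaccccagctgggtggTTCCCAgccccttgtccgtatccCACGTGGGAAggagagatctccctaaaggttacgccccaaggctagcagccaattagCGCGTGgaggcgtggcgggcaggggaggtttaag
In the Lfng stretch the first match is TTCCCA, the reverse strand of TGGGAA, and a second TGGGAA overlaps the E-box as CACGTGGGAA. CGCGTG, nearer the gene start, is CACGCG on the reverse strand. The Dll4 stretch holds 1 CACGCG and neither of the other motifs. Over windows of 250 bases, TGGGAA was present in 21.6% of 32851 RefSeq promoters, CACGTG in 6.02% and CACGCG in 7.62%. Promoter entries were matched for 7 of the 10 members, the receptors and ligands, and for none of the targets Hes1, Hey1 and Heyl. Of the 7, TGGGAA was found in 0 and CACGCG in the windows of Notch2, Jag1 and Dll4, and nothing is shown for the targets. These matches are letters in a window, and no binding was measured.

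Among the 10 members there was no common direction between control and metformin glands. The call rule used throughout was a 1.5-fold difference or more together with an unadjusted p below 0.01. It was passed by 0 of 10 members, where 1.7% of all tested features did. At an unadjusted p under 0.05, 1 member passed, Heyl, against a background of 7.53%. The 3 metformin values lay wholly above the 3 control values for 1 member, again Heyl, and wholly below for 0. Over all features the groups did not overlap in 13.2%, with metformin above in 6.24% and below in 7.01%. Of the log2 fold changes, 5 were above 0 and 5 below, where 51.3% of all features were above 0, with a median of -0.01 beside 0.01 over all features and a range of -0.41 to 0.50. The smallest adjusted p among the members was 0.605 (edgeR quasi-likelihood test with Benjamini-Hochberg adjustment over 15925 features), and 0 features of the whole table passed an adjusted p under 0.05 in this test, where 1199 had an unadjusted p under 0.05, 200 passed the adjusted threshold with DESeq2 and 0 with limma-voom.

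**Figure D1:**
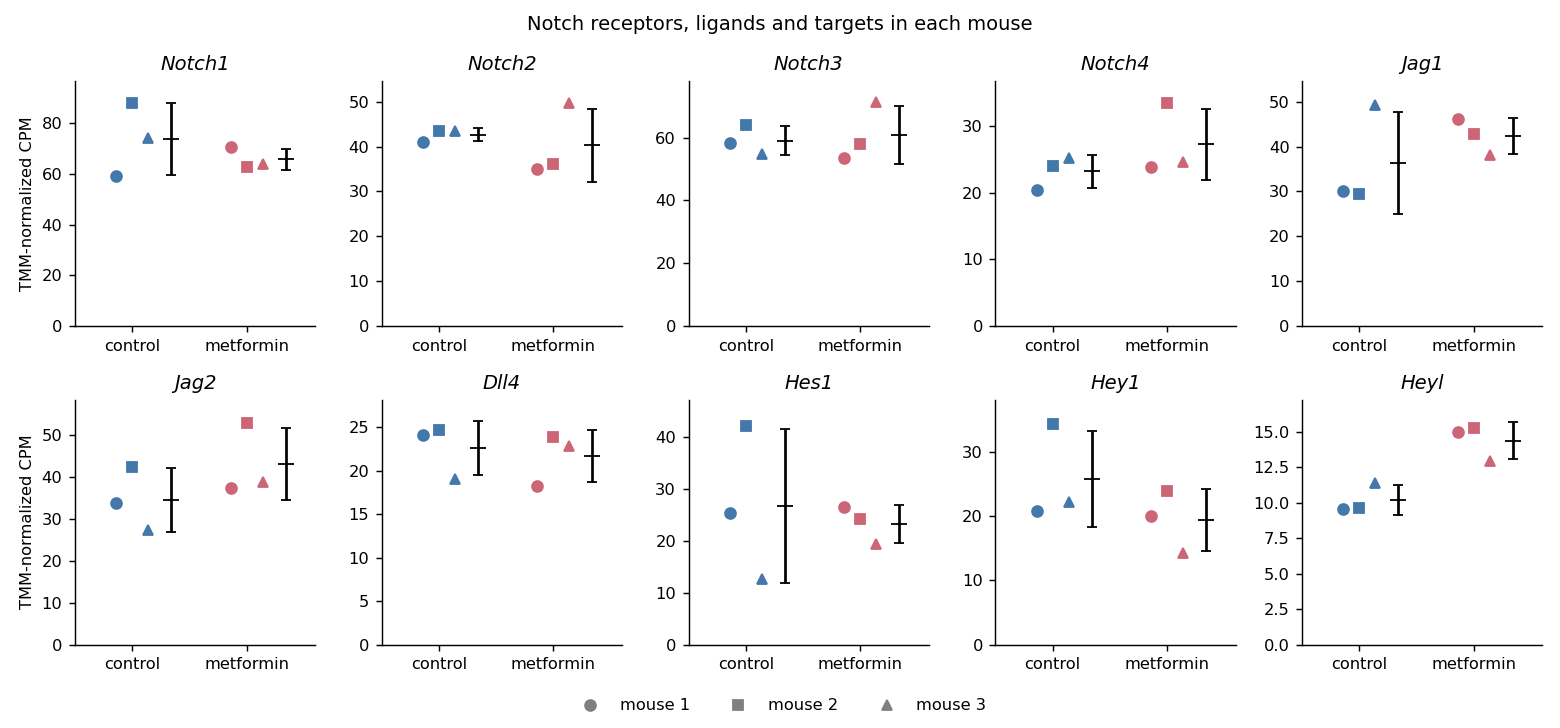
TMM-normalized CPM (vertical axis, linear, from 0) of the 10 Notch genes in each of 3 control mice (blue) and 3 metformin mice (red), with the group mean and SD as a black bar beside the points. Marker shape is the mouse number and pairs no mice. Heyl is the gene whose groups do not overlap, from 9.53 to 11.4 CPM in control and 12.9 to 15.3 CPM in metformin mice.

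Levels were first set side by side per transcript length, as FPKM, in which fragment counts are divided by transcript length and library size, since CPM does not compare genes of different length. Hes1, a repressor of differentiation genes, was the highest member, with a mean of 15.8 ± 6.47 FPKM (SD, n = 6 mice), and Heyl the lowest, with 2.50 ± 0.466 FPKM. Hey1 followed Hes1 with 8.68 ± 2.76 FPKM and was below it in 5 of 6 mice. The next 4 genes, Jag2, Notch3, Notch1 and Jag1, had means of 7.01, 6.95, 6.89 and 6.54 FPKM and SDs of 1.11 to 1.61 FPKM. Among them each gene exceeded the one that follows in 2 or 3 of 6 mice, so that their order is not resolved beyond the spread between mice. Dll4 had 5.47 ± 0.692 FPKM and exceeded Notch2, with 3.70 ± 0.730 FPKM, in 6 of 6 mice. Notch2 and Notch4, with 3.57 ± 0.522 FPKM, were not separated, and Notch4 exceeded Heyl in 6 of 6 mice.

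**Figure D2:**
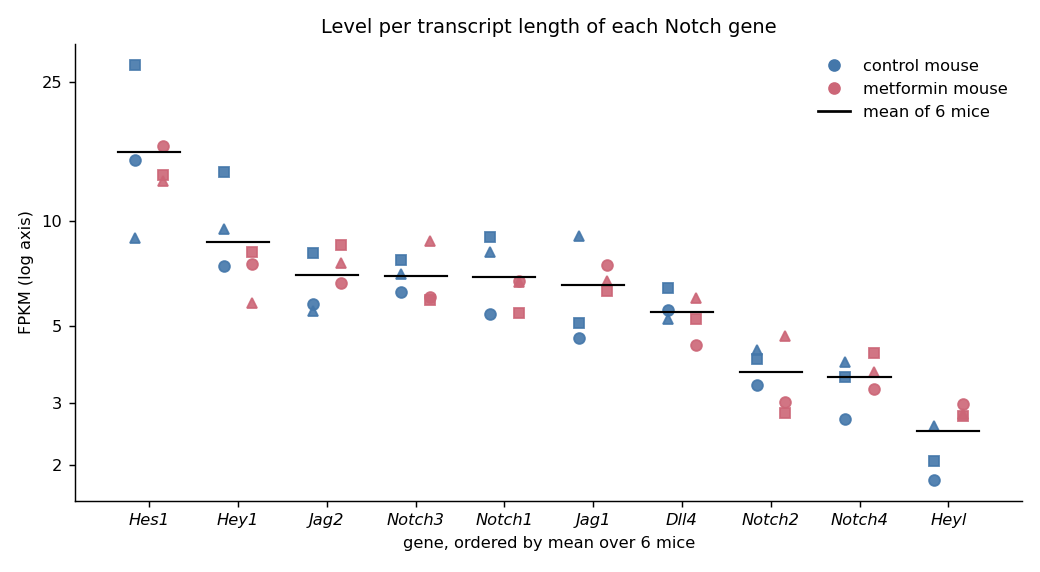
FPKM (vertical axis, log scale) of each Notch gene in 3 control (blue) and 3 metformin (red) mice, ordered by the mean over 6 mice (black line). Marker shape is the mouse number. Hes1 is highest at a mean of 15.8 FPKM and Heyl lowest at 2.50 FPKM, and the 4 genes Jag2, Notch3, Notch1 and Jag1 lie between 6.54 and 7.01 FPKM.

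Within the receptors the mixture was similar in all 6 glands. Notch1 made up 28.0% to 36.9% of the summed receptor FPKM and Notch3 30.1% to 36.8%, while Notch2 contributed 15.4% to 19.6% and Notch4 14.7% to 22.8%. The summed receptor level was 17.7 to 24.3 FPKM in control and 18.4 to 23.8 FPKM in metformin mice, and the groups overlapped in the share of each receptor. The ligands were less even. Jag1 made up 26.1% to 45.8% of the summed ligand FPKM, with both ends of the range set by control mice.

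Notch1, the receptor best known for luminal fate in this tissue, lies at chr2:26457903-26516663 on the minus strand (GRCm38, GENCODE vM21). It was at 59.2, 87.8 and 74.0 CPM in control mice 1 to 3 and at 70.4, 62.8 and 64.0 CPM in metformin mice 1 to 3. The controls spanned all of the metformin values, with group means of 73.7 ± 14.3 and 65.8 ± 4.07 CPM (SD, n = 3). Its log2 fold change, metformin over control, was -0.16 (SE 0.18, 95% interval -0.58 to 0.25, adjusted p = 0.842 by edgeR). In this annotation 1389 of its 14232 exonic bases are shared with antisense transcripts, and without strand in the counting, reads of the gene and of its antisense partners cannot be told apart.

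Notch2, a receptor widely expressed in stroma and epithelium (chr3:98013527-98150361, plus strand), was at 41.1, 43.5 and 43.4 CPM in the control mice and at 35.1, 36.1 and 49.7 CPM in the metformin mice. The controls lay close together and inside the metformin range, with metformin mouse 3 above all and the other two below all. This gave a log2 fold change of -0.08 (SE 0.17, interval -0.49 to 0.32, adjusted p = 0.922 by edgeR). Of its 10782 exonic bases, 541 are shared with another transcript of the same strand.

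Notch3, the receptor of vascular smooth muscle and pericytes and also present in luminal cells (chr17:32120820-32166852, minus strand), was at 58.1, 64.1 and 54.9 CPM in control and 53.6, 58.0 and 71.3 CPM in metformin mice. Its log2 fold change of 0.05 (SE 0.16, interval -0.33 to 0.42, adjusted p = 0.961 by edgeR) had the smallest size among the members. Its sign was not stable: the value was -0.0020 without control mouse 3 and -0.081 without metformin mouse 3. Here 488 of 8089 exonic bases are shared with an antisense transcript.

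Notch4, the receptor of endothelial cells (chr17:34564268-34588503, plus strand), was at 20.5, 24.0 and 25.2 CPM in control and 23.8, 33.4 and 24.6 CPM in metformin mice. Metformin mouse 2 was above all others and the remaining values overlapped. Its log2 fold change was 0.23 (SE 0.19, interval -0.20 to 0.66, adjusted p = 0.797 by edgeR).

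Among the ligands, Jag1 (chr2:137081456-137116644, minus strand), which signals from epithelium, endothelium and smooth muscle, was at 30.0, 29.5 and 49.4 CPM in control and 46.1, 42.9 and 38.2 CPM in metformin mice. Control mice 1 and 2 were below all metformin mice and control mouse 3 was above all of them. With all mice the log2 fold change was 0.22 (SE 0.23, interval -0.30 to 0.75, adjusted p = 0.833 by edgeR). Without control mouse 3 it was 0.51 (adjusted p = 0.261 by edgeR), in a comparison where 10.5% of features had an unadjusted p under 0.05.

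Jag2 (chr12:112907819-112929776, minus strand), the other Jagged ligand, was at 33.8, 42.4 and 27.4 CPM in control and 37.3, 52.9 and 38.9 CPM in metformin mice. Each metformin mouse except mouse 2 lay within the control range. Its log2 fold change was 0.32 (SE 0.22, interval -0.19 to 0.82, adjusted p = 0.767 by edgeR).

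Dll4 (chr2:119325784-119335962, plus strand), the ligand of endothelial tip cells and arteries, whose promoter is printed above, was at 24.0, 24.7 and 19.0 CPM in control and 18.2, 23.8 and 22.8 CPM in metformin mice. The groups overlapped over nearly their full ranges, with a log2 fold change of -0.06 (SE 0.18, interval -0.48 to 0.36, adjusted p = 0.947 by edgeR). The sign turned when a single mouse was left out, to 0.0071 without control mouse 2 and 0.019 without metformin mouse 1. It shares 214 of 3852 exonic bases with an antisense transcript.

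Among the targets, Hes1 (chr16:30064384-30067796, plus strand), which responds to Notch and to other signals, was at 25.3, 42.3 and 12.7 CPM in control and 26.5, 24.1 and 19.3 CPM in metformin mice. Control mouse 2 was highest and control mouse 3 lowest, so that the metformin values lay inside a control range with a coefficient of variation of 55.4%. The log2 fold change was -0.20 (SE 0.39, interval -1.10 to 0.71, adjusted p = 0.916 by edgeR), an interval that reaches from 0.465 to 1.63 times the control level. Without control mouse 2 the value was 0.30.

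Hey1 (chr3:8663359-8667256, minus strand), a repressor found in endothelium and in progenitor cells of many tissues, was at 20.9, 34.4 and 22.3 CPM in control and 20.0, 24.0 and 14.3 CPM in metformin mice. Control mouse 2 was again the highest, and metformin mouse 2 lay above the other 2 controls. The log2 fold change of -0.41 (SE 0.27, interval -1.03 to 0.21, adjusted p = 0.765 by edgeR) was the lowest among the members.

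Heyl (chr4:123233556-123249875, plus strand), a target known from vascular smooth muscle and pericytes, was at 9.53, 9.63 and 11.4 CPM in control and 15.0, 15.3 and 12.9 CPM in metformin mice. All metformin mice were above all control mice, with group means of 14.4 ± 1.29 and 10.2 ± 1.05 CPM (SD, n = 3). The metformin level was 1.41 times the control level (95% interval 1.06 to 1.88), a log2 fold change of 0.50 (SE 0.18, interval 0.09 to 0.91, adjusted p = 0.605 by edgeR). Its unadjusted p was under 0.05, and it did not pass the call rule. For 3 against 3 mice an exact two-sided permutation test cannot go below p = 0.1. With a mouse left out, the log2 fold change was between 0.44 and 0.59, and the unadjusted p was above 0.05 without control mouse 1 (log2 fold change 0.45), control mouse 2 (0.46), metformin mouse 1 (0.44) or metformin mouse 2 (0.45). The number of members with an unadjusted p under 0.05 was then 0, beside 4.82% to 7.20% of all features in these fits. It was 1 without metformin mouse 3, beside 7.05% of all features, and 2, Heyl and Jag1, without control mouse 3, beside 10.5%.

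Leaving out a mouse can add separations and cannot undo that of Heyl, and the share of all features without overlap was then 21% to 26.5%. The other members that separated were Notch1 (lower) without control mouse 1, Jag2 (higher) without control mouse 2, Jag1 (higher) and Dll4 (lower) without control mouse 3, Hey1 (lower) without metformin mouse 2 and Notch2 (lower) without metformin mouse 3. The number of members whose groups did not overlap was thus 3 without control mouse 3, 2 without control mouse 1, control mouse 2, metformin mouse 2 or metformin mouse 3, and 1 otherwise.

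The intervals limit the size of any difference. For Notch1, Notch2, Notch3 and Dll4 the 95% interval of the fold change lay within 1.5-fold in either direction. For Notch4, Jag1 and Jag2 the upper bounds were 1.58, 1.68 and 1.77 times the control level, and for Hey1 the lower bound was 0.490 times. A p that misses the threshold does not show that these genes were equal in both groups.

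**Figure D3:**
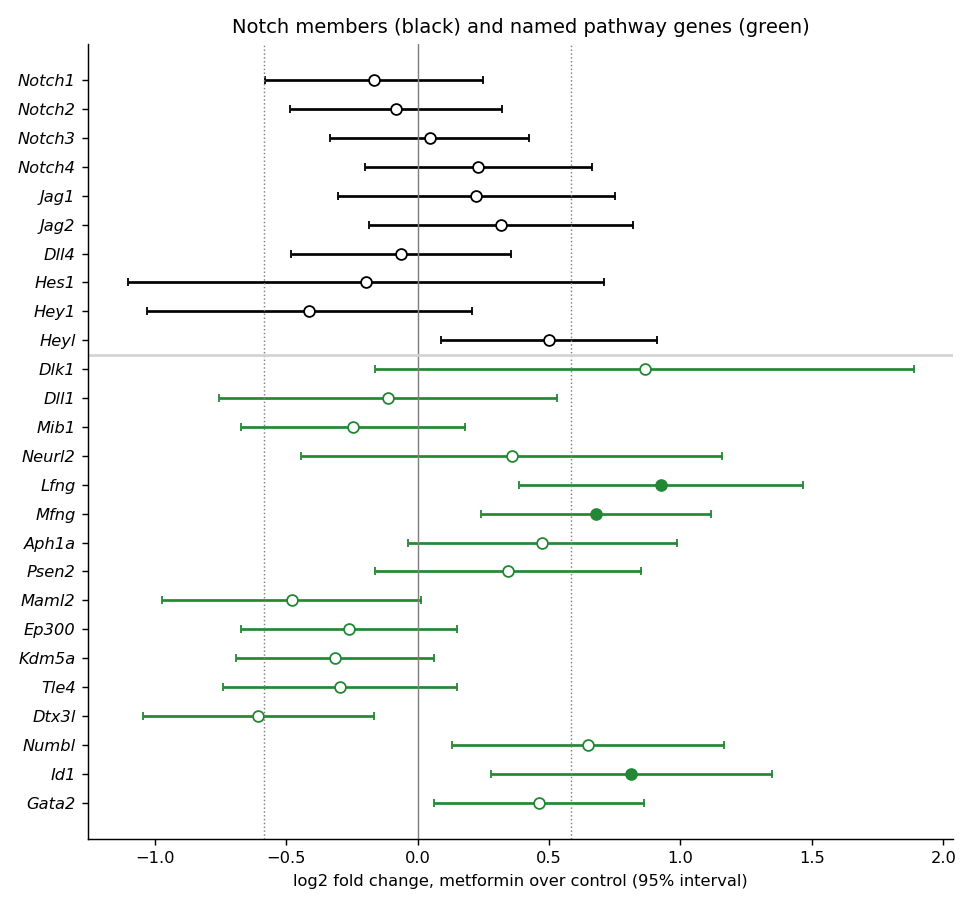
Log2 fold change, metformin over control (horizontal axis), with its 95% interval from the edgeR quasi-likelihood test, for the 10 members (black) and the 16 other pathway genes named by rule (green). Dotted lines mark a fold of 1.5 in either direction, and filled points passed the call rule. The filled points are Lfng, Mfng and Id1, and among the members the interval of Heyl, 0.09 to 0.91, lies above 0.

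The wider pathway was described with a list of 70 further genes, of which 66 passed the filter on low counts. Dll3, Dner, Hes5 and Hes7 did not pass, with at most 20 counts in any library. Of the 66 genes, 27 had a log2 fold change above 0 and 39 below, with a median of -0.07. The call rule was passed by 3 genes in the higher direction (Lfng, Mfng and Id1), against a background of 0.421%, and by 0 in the lower direction, against 1.28%. At an unadjusted p under 0.05 there were 5 higher genes (background 2.68%) and 3 lower genes (background 4.85%), 12.1% of the list in all. The groups did not overlap for 7 genes in the higher and 4 in the lower direction, 16.7% of the list beside 13.2% of all features. Leaving out control mouse 2 or metformin mouse 1 gave 5 genes at an unadjusted p under 0.05 in place of 8, beside 4.82% and 5.97% of all features, and without control mouse 3 there were 12, beside 10.5% of all features.

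The genes that glycosylate the receptors held 2 of the 3 genes past the call rule. They were 2 of 7 tested, beside 1.7% of all features. Lfng (lunatic fringe), a glycosyltransferase that extends O-fucose on Notch and favours Delta-like over Jagged ligands, was at 19.0, 19.5 and 24.5 CPM in control and 53.3, 31.6 and 34.8 CPM in metformin mice. All metformin mice were above all controls, and metformin mouse 1 was the highest. This was a log2 fold change of 0.93 (SE 0.23, interval 0.39 to 1.46, adjusted p = 0.539 by edgeR), a level 1.90 times that of control. It lies at chr5:140607320-140615545, downstream of the promoter printed above, and shares no exonic base with another gene.

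Mfng (manic fringe), an enzyme of the same family (chr15:78755882-78773475, minus strand), was at 63.8, 80.0 and 53.3 CPM in control and 116, 100.2 and 99.3 CPM in metformin mice, again without overlap. Its log2 fold change was 0.68 (SE 0.19, interval 0.24 to 1.12, adjusted p = 0.539 by edgeR). Rfng (radical fringe), the third family member, is named after its values were seen and was at 32.3, 34.5 and 24.0 CPM in control and 34.2, 38.8 and 33.0 CPM in metformin mice, with overlap and a log2 fold change of 0.22 (SE 0.18, adjusted p = 0.797 by edgeR). The 7 glycosylation genes tested also include the O-fucosyltransferase Pofut1 and the O-glucosyltransferases. Of the 7, Lfng and Mfng were the 2 whose groups did not overlap, beside 13.2% of all features. The call for each depended on single mice, though both stayed above 0 with any mouse left out. Lfng did not pass the rule without control mouse 1 (log2 fold change 0.86), control mouse 2 (0.88) or metformin mouse 1 (0.63). Mfng did not pass without control mouse 1 (0.66), control mouse 3 (0.55), metformin mouse 1 (0.58), metformin mouse 2 (0.72) or metformin mouse 3 (0.72).

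Of the other targets, 8 were tested. Id1, an inhibitor of basic helix-loop-helix factors that responds to BMP signals as well as to Notch, was at 47.0, 42.4 and 27.9 CPM in control and 78.5, 70.8 and 56.6 CPM in metformin mice. The groups did not overlap, and the log2 fold change was 0.81 (SE 0.23, interval 0.28 to 1.35, adjusted p = 0.539 by edgeR). It did not pass the call rule without control mouse 2 (log2 fold change 0.87), control mouse 3 (0.62), metformin mouse 1 (0.68) or metformin mouse 2 (0.79). Gata2, a transcription factor of endothelial and blood cells, was at 14.5, 10.9 and 13.9 CPM in control and 17.5, 18.4 and 18.3 CPM in metformin mice, a log2 fold change of 0.46 (SE 0.17, adjusted p = 0.626 by edgeR). Hey2 and Nrarp, chosen for mention after their values were seen since both are direct targets, pointed in opposite directions, with log2 fold changes of -0.82 (SE 0.44) and 0.38 (SE 0.20) that did not pass (adjusted p = 0.728 for each by edgeR).

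The group of Numb proteins and ubiquitin ligases that act on Notch held 4 of the 8 genes at an unadjusted p under 0.05. They were 4 of 10 tested, beside 7.53% of all features. Numbl, an adaptor that promotes removal of Notch from the membrane, was at 8.80, 11.7 and 10.6 CPM in control and 19.1, 12.3 and 17.4 CPM in metformin mice. Its groups did not overlap, with a log2 fold change of 0.65 (SE 0.22, adjusted p = 0.605 by edgeR). Dtx3l, a ligase of the Deltex family, was lower, at 35.2, 43.2 and 40.7 CPM in control and 23.1, 22.7 and 32.5 CPM in metformin mice. The log2 fold change was -0.61 (SE 0.19, adjusted p = 0.564 by edgeR), and 458 of its 5725 exonic bases are shared with the antisense gene Parp9. The other lower genes, Itch and Dtx4, are named after their values were seen, with log2 fold changes of -0.36 (SE 0.14, adjusted p = 0.645 by edgeR) and -0.48 (SE 0.20, adjusted p = 0.661). Numb itself, likewise named after its values were seen, had -0.26 (SE 0.18, adjusted p = 0.775 by edgeR).

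The enzymes and nuclear partners were 10 cleavage genes, 9 nuclear genes and 14 corepressors. Among them 0 genes had an unadjusted p under 0.05, beside 7.53% of all features. Aph1a, a subunit of gamma-secretase, was at 98.5, 87.5 and 64.1 CPM in control and 96.8, 140.5 and 110.3 CPM in metformin mice. Its log2 fold change was 0.47 (SE 0.22, adjusted p = 0.688 by edgeR), and 445 of its 3450 exonic bases are shared with the antisense gene Car14. Rbpj, the DNA-binding partner of all 4 receptors, also named after its values were seen, was at 32.6, 29.0 and 36.6 CPM in control and 31.1, 26.0 and 41.1 CPM in metformin mice, so that the controls lay within the metformin range (log2 fold change 0.0017, SE 0.20). Maml2, a Mastermind coactivator, was at 17.7, 22.1 and 22.4 CPM in control and 14.3, 11.8 and 18.6 CPM in metformin mice, a log2 fold change of -0.48 (SE 0.21, adjusted p = 0.670 by edgeR). The log2 fold changes of the other genes named by rule in these groups were 0.34 for Psen2 (gamma-secretase), -0.26 for the acetyltransferase Ep300, -0.31 for the demethylase Kdm5a and -0.29 for the corepressor Tle4.

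Among the further ligands, Dlk1, a non-canonical ligand of preadipocytes, was low, at 2.80, 1.04 and 2.64 CPM in control and 2.80, 4.79 and 4.18 CPM in metformin mice. Control mouse 1 and metformin mouse 1 were nearly equal, and the log2 fold change of 0.86 (SE 0.44, adjusted p = 0.722 by edgeR) did not pass. Dll1, a canonical ligand, was at 15.1, 23.7 and 11.6 CPM in control and 15.5, 17.8 and 13.4 CPM in metformin mice. The order of control mice was that of Hes1 (log2 fold change -0.11, SE 0.28), and 867 of its 4219 exonic bases are shared with an antisense transcript. The ubiquitin ligases that activate ligands held 0 of 5 genes at an unadjusted p under 0.05, beside 7.53% of all features. Their log2 fold changes included -0.25 for Mib1 and 0.36 for Neurl2. For Neurl2, 324 of 1014 exonic bases are shared with the antisense gene Ctsa.

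**Figure D4:**
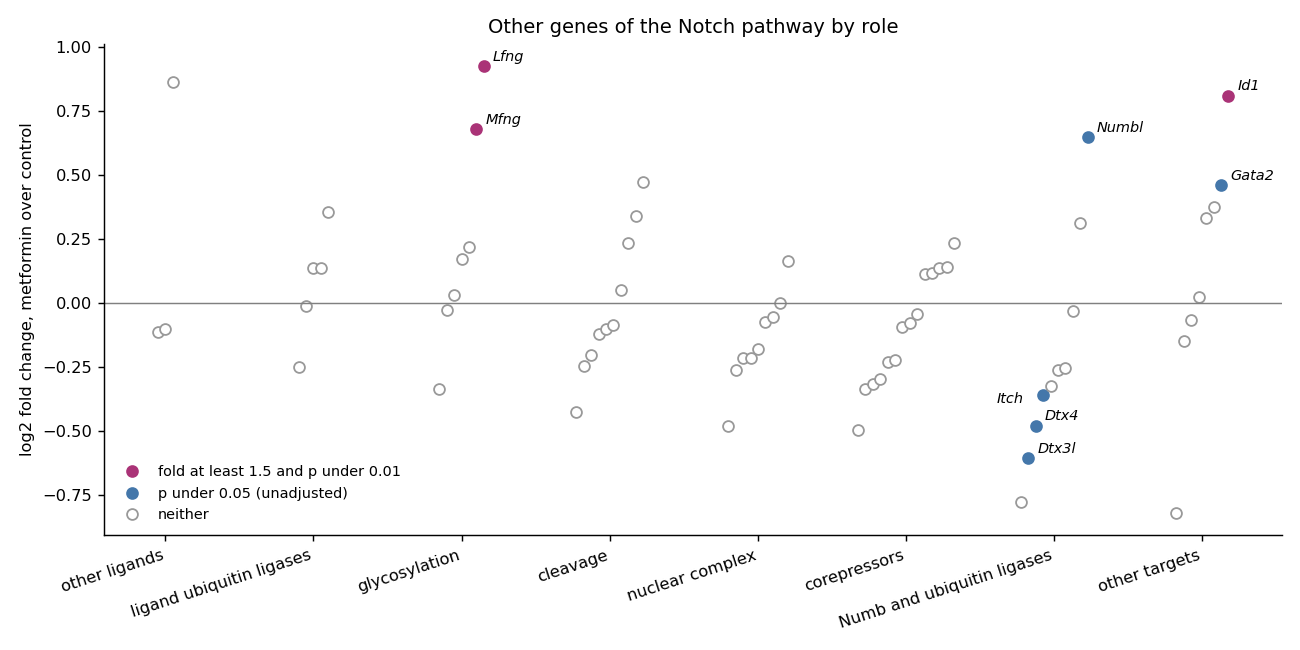
Log2 fold change, metformin over control (vertical axis), of the 66 tested pathway genes that are not members, grouped by role. Purple points passed the call rule, blue points had an unadjusted p under 0.05 and open points neither. The fringe genes Lfng (0.93) and Mfng (0.68) and the target Id1 (0.81) are the purple points.

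Since these genes are expressed in different cells of the gland, summed marker levels were read in the same libraries. All markers of the lists named here were detected, and endothelial markers, 12 genes that include Pecam1 and Cdh5, summed to 930 to 1015 CPM in control and 946 to 1113 CPM in metformin mice, with 0 of 12 at an unadjusted p under 0.05. Mural markers summed to 1242 to 1352 CPM in control and 1154 to 1772 CPM in metformin mice. Des alone held 555 to 745 CPM of this in control and 558 to 1110 CPM in metformin mice. Metformin mouse 2, the highest in Des, also had the highest summed skeletal muscle markers, at 23386 CPM. Of the 10 mural markers, 3 had an unadjusted p under 0.05, beside 7.53% of all features. Cspg4 (pericytes) and Kcnj8 were higher, at log2 fold changes of 0.57 (SE 0.17) and 0.40 (SE 0.16). Myh11 (smooth muscle) was lower, at -0.86 (SE 0.18). Acta2 (-0.52) and Mylk (-0.41), contractile genes of the basal list, were lower as well, and 3 of the 9 basal markers were above 0. Heyl and Notch3 are genes of mural cells, and the cell source of the lower Myh11 was not tested. In arterial markers, at 88.2 to 106 CPM in control and 97.9 to 111 CPM in metformin mice, Sox17 alone of 6 was higher at that p, at 0.53 (SE 0.18).

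Epithelial markers summed to 885, 1640 and 911 CPM in control mice 1 to 3 and to 928, 591 and 741 CPM in the metformin mice. Of these markers, 4 of 10 were lower at an unadjusted p under 0.05, Cdh1 and Esrp1 among them. At that p, 4.85% of all features were lower and 2.68% higher. Control mouse 2, the highest in Hes1 and Hey1, was also the highest in epithelial markers. Luminal progenitor markers summed to 5647, 6934 and 840 CPM in control and 570 to 740 CPM in metformin mice, and 6 of 9 were lower at that p. Csn3, which is also in the list of 8 milk genes, alone held 3139, 3517 and 342 CPM of the control sums. In the luminal progenitor sum control mouse 3 lay near the metformin mice, and no value without that mouse is given for this list. Basal markers were at 464 to 721 CPM and 350 to 605 CPM, with 2 of 9 lower at that p. Adipocyte markers did not overlap, at 13634 to 16246 CPM in control and 16634 to 22294 CPM in metformin mice, and all 10 had a log2 fold change above 0, with 1, Plin1, at that p.

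Fits with the mean log2 CPM of a marker list as a covariate, not its summed CPM, moved several members. None of the members passed the call rule in any of these fits. With the epithelial covariate the log2 fold change of Hes1 was 0.50, that of Hey1 -0.14 and that of Heyl 0.43. With the adipocyte covariate, Hes1 was at 0.99, Jag1 at -0.38 and Heyl at 0.24. Heyl was at 0.39 with the mural covariate, at 0.57 with the endothelial and at 0.49 with the basal covariate. Of these 5 fits the last kept its unadjusted p under 0.05. These fits leave 3 residual degrees of freedom. Since all 10 adipocyte markers had a log2 fold change above 0, that covariate and the treatment cannot be told apart well. Of the 3 pathway genes past the call rule, none passed it with the adipocyte covariate, where Lfng had 0.57, Mfng 1.01 and Id1 1.27. With the epithelial covariate Mfng passed at 0.94, whereas Lfng at 0.98 and Id1 at 0.95 did not. With the endothelial covariate Lfng passed at 1.58, whereas Mfng at 0.80 and Id1 at 0.82 did not. The part of the cell mixture in these differences was not tested further.

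**Figure D5:**
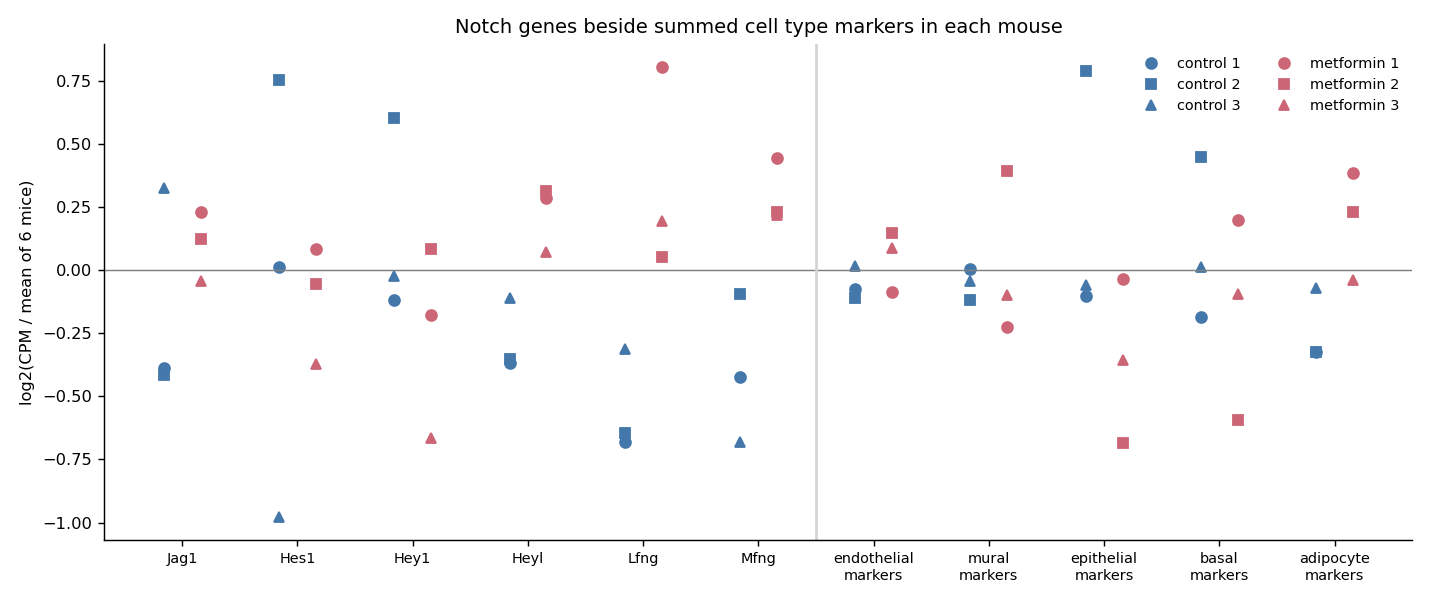
Log2 ratio of each mouse to the mean of 6 mice (vertical axis) in TMM-normalized CPM for 4 members and the fringe genes Lfng and Mfng (left) and for the summed markers of 5 cell types (right), with 3 control mice in blue and 3 metformin mice in red and 1 marker shape for each mouse number. Control mouse 2 is highest in Hes1, Hey1 and the epithelial sum of 1640 CPM, and the adipocyte sum shares with Heyl, Lfng and Mfng that the groups do not overlap.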

How the data were processed

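RNA of whole mammary glands from 3 control and 3 metformin mice was sequenced as 1 library per mouse, and the labels gave the groups. A service provider trimmed adapters, discarded reads of low quality and mapped paired reads of 150 bases to GRCm38 (mm10). HISAT2 and StringTie are listed in the submitters' notes with no version. The authors deposited raw counts per gene. How they were counted, on which annotation release and whether by strand, was not given in the sources used here. FPKM values were deposited by the authors as well and served for levels per length and for alternatives on log2(FPKM + 1) and log2(FPKM + 0.1).

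The counts were fitted with edgeR 4.0.16 in R 4.3.3 (filterByExpr, TMM, quasi-likelihood F test on group alone, Benjamini-Hochberg over 15925 features), after a test on simulated data. CPM values are TMM-normalized. The SE of a log2 fold change came from the F statistic, and intervals are at 95%. The call rule, 1.5-fold and an unadjusted p below 0.01, follows the methods of the study, and an unadjusted p under 0.05 was the second rule. Each library was a separate animal, and all differed by far more than counting error. The 22 alternatives were RLE and upper quartile normalization, no filter on low counts, at least 10 counts in every library and further fits. These were no features assembled beyond the annotation, DESeq2 1.42.0, limma-voom (limma 3.58.1) and a replicate block. The rest were 5 marker lists as covariates, 3 fits of FPKM and each mouse left out. Each covariate was the mean log2 CPM of its list in each library. The mural and basal covariates were added after seeing the data. Positions and shared exonic bases are from GENCODE vM21, and promoters from RefSeq. Named are all 10 members and, of the pathway list, up to 2 genes with the smallest p in each role and each gene past the call rule. Pathway genes whose values are given outside this rule are marked as chosen after their values were seen. Single cell type markers also fall outside this rule, were named with their values known and are not marked. Members and lists were chosen with earlier results of these data known. Poglut2 and Poglut3 were read under their older symbols, Kdelc1 and Kdelc2.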

Additional observations from a re-analysis of the deposited data

How the results depend on the processing

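The count of members past the call rule was 0 in all 22 alternatives. Hey1 stayed below 0 and Heyl above 0 in all 22, Heyl at 0.24 to 0.59 with an unadjusted p under 0.05 in 10. The members with an unadjusted p under 0.05, 1 in all, numbered 0 with the endothelial, epithelial, adipocyte or mural covariate and in the 3 fits of FPKM, and 0 to 2 with a mouse left out. Members without overlap numbered 1 to 3 with a mouse left out, which can only add to the 1 of all libraries, beside 21% to 26.5% of all features. Pathway genes with an unadjusted p under 0.05, 8 in all, beside 7.53% of all features, numbered 5 with the endothelial, mural or basal covariate or log2(FPKM + 1), beside 5.56%, 4.04%, 6.08% and 6.39%, and 4 with the epithelial covariate, log2(FPKM + 0.1) or unfiltered FPKM, beside 4.98%, 6.32% and 5.66%. They numbered 7 to 9 in the other fits of all libraries without a block, and 5 to 12, beside 4.82% to 10.5%, with a mouse left out. Lfng, Mfng and Id1 were past the call rule in 13, 11 and 13 alternatives, with log2 fold changes of 0.57 to 1.58, 0.55 to 1.01 and 0.62 to 1.27.

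The sign of the log2 fold change turned for these genes, none of them called. With the endothelial covariate, Notch1 was at 0.040, Notch3 at -0.12, Notch4 at -0.046, Jag2 at -0.10, Mib1 at 0.030, Neurl2 at -0.16, Aph1a at -0.057 and Kdm5a at 0.011. With the epithelial covariate, Notch1 was at 0.029, Hes1 at 0.50 and Dll1 at 0.29. With the adipocyte covariate, Notch2 was at 0.031, Jag1 at -0.38, Dll4 at 0.26, Hes1 at 0.99, Dll1 at 0.45 and Psen2 at -0.033. With the mural covariate, Notch4 was at -0.033, Hes1 at 0.48 and Dll1 at 0.13, and with the basal covariate Dll1 was at 0.014. Notch3 was at -0.032 with log2(FPKM + 1), filtered or not, and -0.038 with log2(FPKM + 0.1). With a mouse left out, Notch3 ran from -0.081 to 0.11, Dll4 from -0.17 to 0.019, Hes1 from -0.53 to 0.30 and Dll1 from -0.32 to 0.22. The cause of these changes was not tested.

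Samples of both groups share only a replicate number. The deviations of same-numbered mice had correlations of -0.35, -0.14 and -0.01, and with a replicate block 0 members and 5 pathway genes had an unadjusted p under 0.05, beside 4.76% of all features, while Heyl was at 0.50, Lfng at 0.89 and Mfng at 0.70, the latter 2 no longer past the call rule.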

Other observations

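The patterns below were noticed in the values and are given as description only, without a test. The ratio of Heyl to Hey1, in FPKM, was 0.244, 0.149 and 0.273 in control mice 1 to 3 and 0.399, 0.340 and 0.484 in metformin mice 1 to 3, so that the groups did not overlap. The ratio of Jag1 to Jag2, in FPKM, was 0.803, 0.633 and 1.64 in control and 1.12, 0.737 and 0.889 in metformin mice, and overlapped.

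Prox1, a transcription factor of lymphatic endothelium that is also found in other cells, was at 6.45, 3.93 and 2.25 CPM in control and 0.711, 0.794 and 1.10 CPM in metformin mice, a log2 fold change of -2.27 (SE 0.46, adjusted p = 0.539 by edgeR). With Reln it was lower at an unadjusted p under 0.05 among 6 lymphatic markers, where 4.85% of all features were lower. The summed level of the 6 overlapped between the groups, at 30.5 to 74.5 CPM in control and 29.0 to 91.5 CPM in metformin mice.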
